A study of Mus musculus with 5 samples.

Results

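Mrgprg, Mrgpre, Mrgprf and Mrgprh are 4 orphan receptors of the Mas-related G protein-coupled receptor (Mrgpr) family. They were described across 5 RNA libraries of mouse fat progenitors by matching their symbols in the deposited table, where they are 4 of 54532 genes. Mrgprg was selected on its counts, which are near 0 outside the libraries whose names hold CD26, so its levels and its difference between gates are given here as a description, without a test. Mrgpre, Mrgprf and Mrgprh were taken by family and not by that pattern.

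Stromal cells came from 30 wild-type mice, 12 to 14 weeks old and fed chow, and were sorted by flow cytometry from 2 depots, subcutaneous (SAT) and visceral (VAT) adipose tissue. Cells with CD31 or CD45 were gated out. The remaining cells were sorted on CD26, the peptidase encoded by Dpp4 that marks interstitial progenitors, and on CD142, the tissue factor encoded by F3. Going by titles, SAT gave single libraries of CD26+CD142- and of CD26-CD142+ cells, and VAT gave 2 of CD26-CD142+ and 1 of CD26+CD142+ cells. Nothing in the labels tells whether separate pools of mice were used, so p-values measure only the spread between these libraries, which may be technical.

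The titles and the library names of the SAT pair give opposite gates. For SAT library 1 the title is CD26+CD142- but the name has CD142. For SAT library 2 the title is CD26-CD142+ but the name has CD26. Dpp4 was at 6.57 CPM (counts scaled to library size, with TMM factors) in SAT library 1 and at 1006 CPM in SAT library 2, and F3 was at 618 and 5.32 CPM, so both sort genes went against the titles. Comparisons that use the SAT gates are therefore given by title and by name, and no library was reassigned. In VAT, the titles matched Dpp4, which stood at 5.13 and 6.57 CPM in CD26-CD142+ replicates 1 and 2 but 417 CPM with CD26. VAT F3 was at 378, 241 and 99.0 CPM in the same order. Total counts were between 21706345 and 25357403, and mitochondrially encoded genes took 2.83% and 4.33% of counts in the libraries numbered 1 and between 0.554% and 0.633% in those numbered 2. The 5 mesenchymal progenitor markers (Pdgfra, Col1a1, Dcn, Ly6a, Cd34) summed to between 16165 and 33134 CPM.

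Mrgpr receptors are best known from sensory neurons of the dorsal root ganglia, where several mediate itch, and from mast cells, where Mrgprb2 triggers degranulation. Ligand-bound family members signal through G proteins of the Gq and Gi classes, phospholipase C beta and release of calcium through inositol trisphosphate (IP3) receptors. Their relative Mas1 is the receptor for the angiotensin fragment Ang-(1-7). The single-copy members described here have no established ligand in mouse, unlike many of the expanded Mrgpra, Mrgprb and Mrgprx genes.

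Mrgprg (ENSMUSG00000050276) lies on mm10 chromosome 7, 143763710 to 143766993, on the minus strand. Mrgpre (ENSMUSG00000048965) lies next to it on the same strand, at 143778363 to 143784500, with 11369 bases between the genes. Mrgprf (ENSMUSG00000031070) is farther along chromosome 7, at 145300828 to 145309557 on the plus strand, and Mrgprh (ENSMUSG00000059408) is on chromosome 17, at 12876034 to 12877977 on the plus strand, next to Mas1. All 4 genes have the same ends in GENCODE mouse release 21. There, the coding sequence lies in 1 exon in Mrgprg, Mrgpre and Mrgprh and in 2 to 3 exons in the transcripts of Mrgprf, and the longest runs to 289, 310, 321 and 343 codons in that order. No stretch of 50 bases from the transcripts of Mrgprg, Mrgprf or Mrgprh occurred in the transcripts of another gene, and 1.35% of those of Mrgpre did.

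The promoters of the adjacent pair are shown because Mrgprg and Mrgpre were high in the same libraries. Each runs from 250 bases before to 50 after the RefSeq start in GRCm38.p6, on the minus strand, at chr7:143766944-143767243 for Mrgprg and chr7:143784451-143784750 for Mrgpre. Capitals mark matches on either strand to the letters searched for the TATA box, CCAAT box, Sp1, AP-1, TEAD or TCF/LEF.
Mrgprg: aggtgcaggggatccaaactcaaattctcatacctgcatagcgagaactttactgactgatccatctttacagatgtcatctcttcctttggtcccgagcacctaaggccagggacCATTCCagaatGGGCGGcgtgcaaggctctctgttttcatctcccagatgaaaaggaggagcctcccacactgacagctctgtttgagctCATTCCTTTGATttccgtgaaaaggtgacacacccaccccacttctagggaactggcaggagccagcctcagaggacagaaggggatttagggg
Mrgpre: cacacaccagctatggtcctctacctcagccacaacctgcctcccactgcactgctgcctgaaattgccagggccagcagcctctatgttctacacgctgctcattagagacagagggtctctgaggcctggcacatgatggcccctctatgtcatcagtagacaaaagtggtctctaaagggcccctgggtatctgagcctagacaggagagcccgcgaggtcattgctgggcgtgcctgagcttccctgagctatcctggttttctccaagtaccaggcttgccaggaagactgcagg
The Mrgprg window held the Sp1 letters GGGCGG once, the TEAD letters GGAATG, on the other strand, at 2 places and the TCF/LEF letters CTTTGAT once. The TCF/LEF match starts 39 bases before the start and shares 1 base with the TEAD match that starts 44 bases before it. Of 32851 mouse promoters of this length, 35.7% held the Sp1 letters, 14.7% the TEAD letters and 3.73% the TCF/LEF letters. The Mrgpre window held none of these. The TATA box letters TATAAA are in 13.6% of promoters, the CCAAT box letters CCAAT in 37.4% and the AP-1 letters TGANTCA in 7.81%, and neither window held any of them. A short E-box (CANNTG), present in 72.3% of promoters and not capitalised, occurred in both. Promoters were matched for 3 of the 4 genes.

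Mrgprg was high in SAT library 2, lower in the VAT CD26+CD142+ library and near 0 elsewhere. It had 0 counts in SAT library 1, 2791 counts in SAT library 2, 2 and 0 counts in VAT CD26-CD142+ replicates 1 and 2, and 402 counts in the VAT CD26+CD142+ library. Scaled, this was 126 CPM (95% Poisson interval 121 to 131) in SAT library 2 and, for VAT CD26+CD142+ cells, 16.6 CPM (15.0 to 18.3). The 2 counts of VAT replicate 1 were 0.0916 CPM (0.0111 to 0.331), and 0 counts allowed up to 0.130 CPM in SAT library 1 and 0.129 CPM in VAT replicate 2, taking 3 counts as the limit. These intervals and limits cover counting error only.

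The level in SAT library 2 was at least 970-fold higher than in SAT library 1, against the limit of 3 counts there. In VAT, the CD26+CD142+ library was 373-fold above the CD26-CD142+ pair (counting interval 103 to 3093), which rests on 2 counts in the pair. Between the 2 libraries with Mrgprg, SAT library 2 was 7.60-fold higher (6.84 to 8.46). Dpp4 differed 2.41-fold (2.36 to 2.47) between the same libraries, so Mrgprg was at 12.5 counts per 100 counts of Dpp4 in SAT library 2 and at 3.97 in the VAT CD26+CD142+ library. Those libraries differ in depot and also in F3, at 5.32 and 99.0 CPM. In bulk RNA, fewer cells with the transcript and less transcript per cell cannot be told apart.

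Per length, Mrgprg in SAT library 2 stood above 97.2% of protein-coding genes, at 63.2 CPM per kilobase, and in the VAT CD26+CD142+ library above 80.2%, at 8.32 CPM per kilobase. Across all gates, the SAT mean was 62.9 ± 88.9 CPM (SD, n = 2) and the VAT mean 5.55 ± 9.53 CPM (SD, n = 3). Each depot held libraries near 0, so the groups overlapped. These means come from the counts that selected Mrgprg and are a description, without a test.

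**Figure D1:**
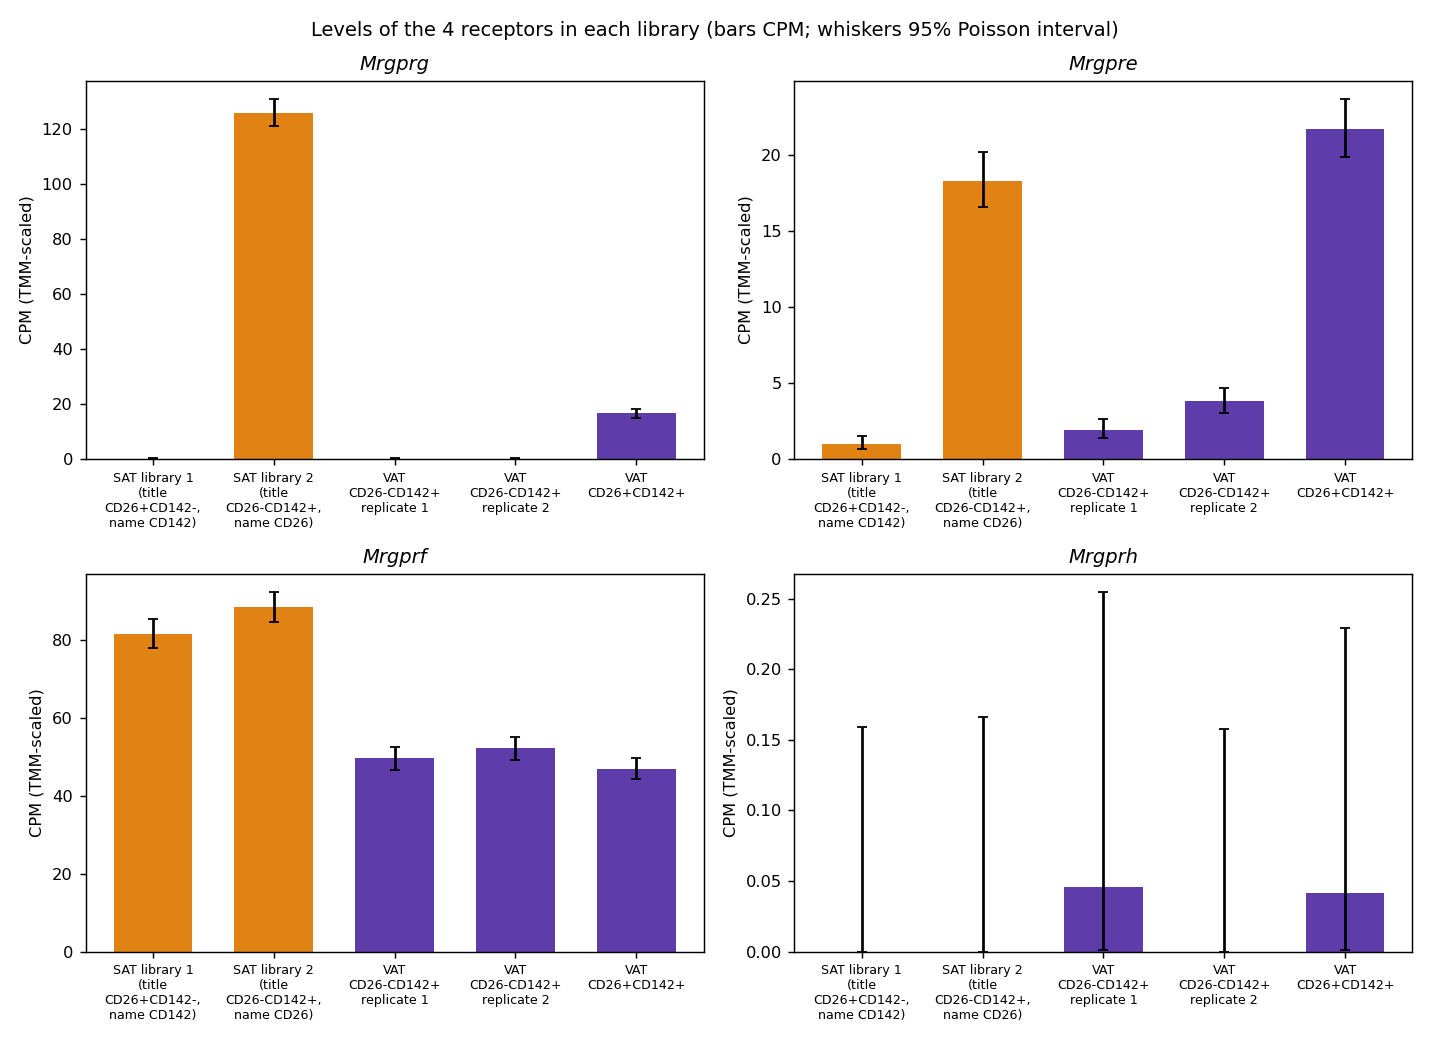
Bars give the TMM-scaled CPM of each receptor in each library, SAT in orange and VAT in purple, each panel with its own axis from 0, and whiskers give 95% Poisson intervals. Mrgprg reached 126 CPM in SAT library 2 and 16.6 CPM in the VAT CD26+CD142+ library, Mrgprf stayed between 46.9 and 88.4 CPM, and Mrgprh had at most 1 count per library.

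Mrgpre was high in the same libraries as Mrgprg but did not share the gap between depots. It was at 0.994 CPM in SAT library 1, 18.3 CPM in SAT library 2, 1.92 and 3.78 CPM in VAT CD26-CD142+ replicates 1 and 2, and 21.7 CPM in the VAT CD26+CD142+ library, from 23, 407, 42, 88 and 528 counts. SAT library 2 and the VAT CD26+CD142+ library, both high in Dpp4, were the highest and did not overlap with the other 3. Of the 15920 genes tested, 16.8% were separated in this way.

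In VAT, Mrgpre rose in CD26+CD142+ cells, from a mean of 2.85 ± 1.31 CPM (SD, n = 2) up to 21.7 CPM, a log2 change of 2.93 (SE 0.57, edgeR adjusted p = 0.0133). It was 1 of 143 genes that rose, 0.898% of those tested, and 0.697% fell, 1.6% in either direction. Left with 1 CD26-CD142+ library, the change was 2.52 without replicate 1 and 3.50 without replicate 2, with no test possible. The 2 replicates differed 1.97-fold (counting interval 1.35 to 2.91), and the single CD26+CD142+ library was assumed to vary as they did. Mesothelial markers moved with this difference: 4 of 8 rose (Msln, Krt8, Krt18 and Gpm6a), where 0.898% of all genes did, and the median log2 change of the list was 4.52. Without Wt1, which was at 113, 154 and 112 CPM, the other 7 summed to 2.29 and 15.8 CPM in the CD26-CD142+ replicates and 216 CPM with CD26. In SAT library 2 these 7 summed to 4.24 CPM, with Msln at 0, beside 18.3 CPM of Mrgpre. The part of mesothelial transcripts in the VAT difference was not tested.

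In SAT, Mrgpre was 18.5-fold higher in library 2 than in library 1 (counting interval 12.1 to 29.4), a difference between single libraries without a test. SAT library 1 stood apart in epithelial transcripts. Its sum of 4 mammary and skin epithelial markers was 42.3 CPM, against at most 0.453 CPM elsewhere, with Epcam at 25.2 and Csn3 at 17.0 CPM, and Krt8, Krt18 and Krt19 were at 45.7, 46.6 and 63.6 CPM. Their part in the SAT difference was not tested. The pair also differs in the number ending the name and in mitochondrial share, 2.83% in library 1 and 0.554% in library 2. Neither can be told apart from the gate in SAT. At least a 2-fold rise, with at least 10 CPM in the higher library, was seen for 6.78% of genes in SAT library 2. Between SAT library 2 and the VAT CD26+CD142+ library, Mrgpre differed by a ratio of 0.844 (0.739 to 0.962), against 7.60 for Mrgprg. Per length, Mrgprg was 13.0 times the level of Mrgpre in SAT library 2, 1.44 times in the VAT CD26+CD142+ library and 0.0900 times in VAT replicate 1.

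With both depots in one fit and the SAT gates by library name, Mrgpre was higher with CD26 by 3.45 on the log2 scale (SE 0.48, edgeR adjusted p = 0.0661), which did not pass, where 0.597% of genes passed. DESeq2 called it (adjusted p = 8.32e-09) among 8.4% of genes, as did edgeR with no filter on low counts (adjusted p = 0.000232). It was also called by edgeR without VAT replicate 2 (adjusted p = 0.0388), but not without VAT replicate 1 (0.0505). Without either SAT library, the fit takes the CD26 difference from VAT alone (2.94 in both runs). Without the VAT CD26+CD142+ library, the difference comes from the SAT pair alone, single libraries on each side (4.21). By title the difference was 1.01 (SE 2.01, edgeR adjusted p = 1), and 0 genes passed, with 140 at an unadjusted p under 0.05 and 16 by DESeq2. By title, the runs without either SAT library gave the same VAT difference (2.94 in both). Without the VAT CD26+CD142+ library the change by title was -4.21, which is the same SAT pair with its labels exchanged and not a second result. In these fits the SAT gates differ in CD142 as well as in CD26. The CD26 difference in SAT therefore cannot be told apart from one in CD142, by title or by name. Both VAT gates are CD142+, but F3 was lower in the CD26+CD142+ library, at 0.322 times the CD26-CD142+ pair (counting interval 0.308 to 0.336). Whether the CD26 effect on Mrgpre, taken this way, differed between depots also turned on the labels. By name the difference, SAT minus VAT, was 1.27 (SE 0.93, edgeR adjusted p = 1), where 0.251% of genes passed. By title it was -7.12 (SE 0.98, edgeR adjusted p = 0.000321), where 6.61% passed. Between depots over all gates, the Mrgpre mean was 9.67 ± 12.3 CPM (SD, n = 2) for SAT, against 9.15 ± 10.9 CPM (SD, n = 3) for VAT, which did not pass (log2 change 0.08, SE 1.43, edgeR adjusted p = 1).

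Mrgprf was found in every library, at like levels across the gates of each depot, and lay higher in the SAT libraries, a difference that edgeR did not call. It was at 81.5 and 88.4 CPM in SAT libraries 1 and 2, at 49.6 and 52.2 CPM in VAT CD26-CD142+ replicates 1 and 2, and at 46.9 CPM in the VAT CD26+CD142+ library. All SAT libraries lay above all VAT libraries, as did those of 9.63% of genes tested. The SAT mean was 84.9 ± 4.88 CPM (SD, n = 2) and the VAT mean 49.6 ± 2.63 CPM (SD, n = 3), a log2 change of 0.78 (SE 0.20) that did not pass in edgeR (adjusted p = 0.451, unadjusted p = 0.00873), where 0.0503% of genes passed. DESeq2 called it (adjusted p = 0.0277) among 2.92% of genes. The change lay between 0.71 and 0.83 with each library left out in turn.

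Between gates, Mrgprf did not pass in VAT (log2 change -0.12, SE 0.47, edgeR adjusted p = 1) or over both depots by name (-0.02, SE 0.21, adjusted p = 0.973) or by title (-0.12, SE 0.27, adjusted p = 1). SAT library 2 was at 1.08 times SAT library 1 (counting interval 1.02 to 1.16). Per length Mrgprf stood above 91.2% to 95.5% of protein-coding genes in the 5 libraries. The summed CPM of 9 smooth muscle and mural markers ran from 178 in SAT library 2, where Mrgprf was highest, to 687 in VAT replicate 2. Most of both sums was Pdgfrb, at 141 and 472 CPM. Acta2 was level at 5.45 and 5.54 CPM, and only Rgs5 was higher in SAT library 2 (4.06 against 1.37 CPM). The part of mural cells in the Mrgprf levels was not tested.

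**Figure D2:**
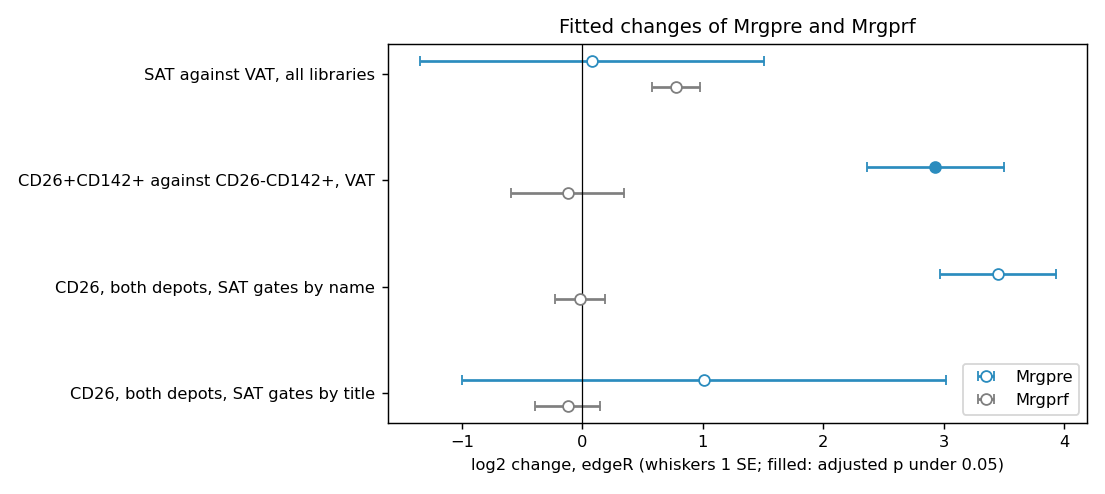
Points give edgeR log2 changes of Mrgpre (blue) and Mrgprf (grey) in 4 comparisons, whiskers 1 SE, and filled points adjusted p under 0.05. Only Mrgpre between the VAT gates (2.93) is filled among these 8 points.

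Mrgprh had 1 count in VAT CD26-CD142+ replicate 1, 1 count in the VAT CD26+CD142+ library and 0 in the other 3, and did not pass the filter on low counts. It was not detectable at this depth in SAT, where 0 counts allow up to 0.130 CPM in library 1 and 0.135 CPM in library 2. So 3 of the 4 receptors passed the filter, which asks for enough counts in at least 2 libraries of either depot. Mrgprg passed only through SAT library 2 (2791 counts) and the VAT CD26+CD142+ library (402 counts), the libraries on which it was selected.

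The table holds 30 further genes of the family, Mas1 included, and 26 of them were at 0 in all libraries. The mast cell receptor Mrgprb2 and the itch receptors Mrgpra3 and Mrgprx1 were among these. Mrgprb1 and Mrgprd had 3 counts each over the 5 libraries and Mrgprx2 had 1. Mas1 had 20 counts: 10 in SAT library 2, 6 in the VAT CD26+CD142+ library, 4 in VAT replicate 2 and 0 in SAT library 1 and VAT replicate 1.

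Mrgprf made up most of the family's counts per kilobase where Mrgprg was near absent. Its share was 99.3% in SAT library 1 and 97.3% and 95.7% in VAT CD26-CD142+ replicates 1 and 2, against 59.8% in the VAT CD26+CD142+ library and 36.9% in SAT library 2. Mrgprg made up 58.4% in SAT library 2 and 23.5% in the VAT CD26+CD142+ library, where Mrgpre made up 16.3%.

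**Figure D3:**
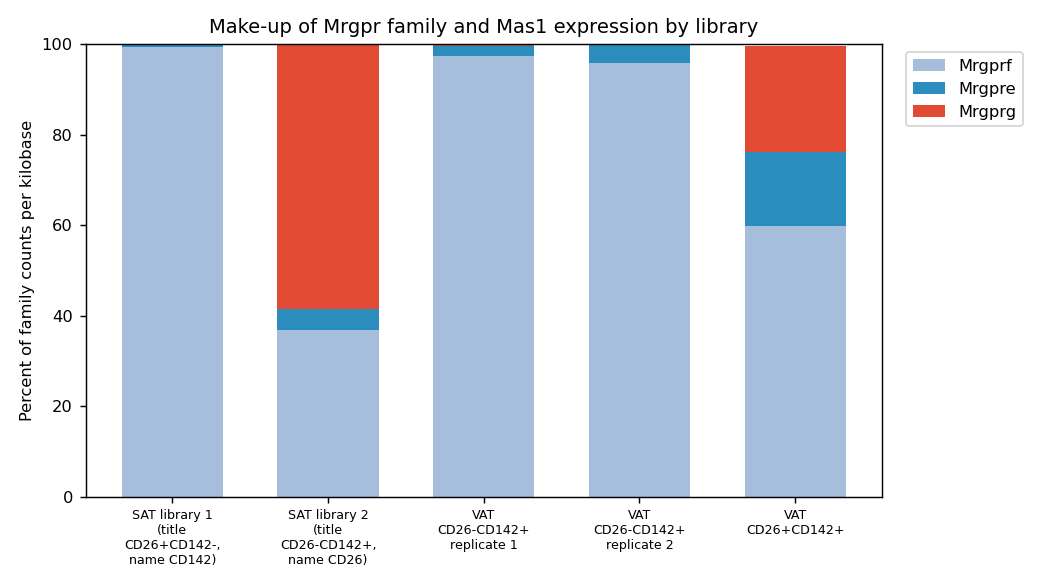
Stacked bars give the percent of counts per kilobase of all 34 genes of the family, Mas1 included, that Mrgprf, Mrgpre and Mrgprg took in each library. Mrgprg takes 58.4% in SAT library 2 and 23.5% in the VAT CD26+CD142+ library.

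The genes next to Mrgprg and Mrgpre differed less between libraries. Osbpl5, an oxysterol-binding protein gene 6724 bases from Mrgprg, was at 68.3 and 104 CPM in SAT libraries 1 and 2, 78.5 and 111 CPM in VAT replicates 1 and 2, and 148 CPM in the VAT CD26+CD142+ library. Nadsyn1, a gene of NAD synthesis 11083 bases from Mrgpre, was at 7.43, 16.2, 8.47, 11.5 and 28.9 CPM in that order. Its highest levels were in the same libraries as those of Mrgpre, as for 16.8% of genes tested. Its change between VAT gates did not pass (log2 1.53, SE 0.48, edgeR adjusted p = 0.186). Neither did those of Osbpl5 (0.64, SE 0.47, adjusted p = 1), the cholesterol synthesis gene Dhcr7 (1.47, SE 0.51, adjusted p = 0.266) and the decoy receptor gene Tnfrsf23 (0.65, SE 0.65, adjusted p = 1). The gene model Gm44998, which lies between Mrgprg and Mrgpre, had 0 counts in all libraries. The strand setting of the counting is not given in the sources used here. The only gene of the table that overlaps any of the 4 receptors is Gm22064, a miRNA model within Mrgpre with 0 counts.

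**Figure D4:**
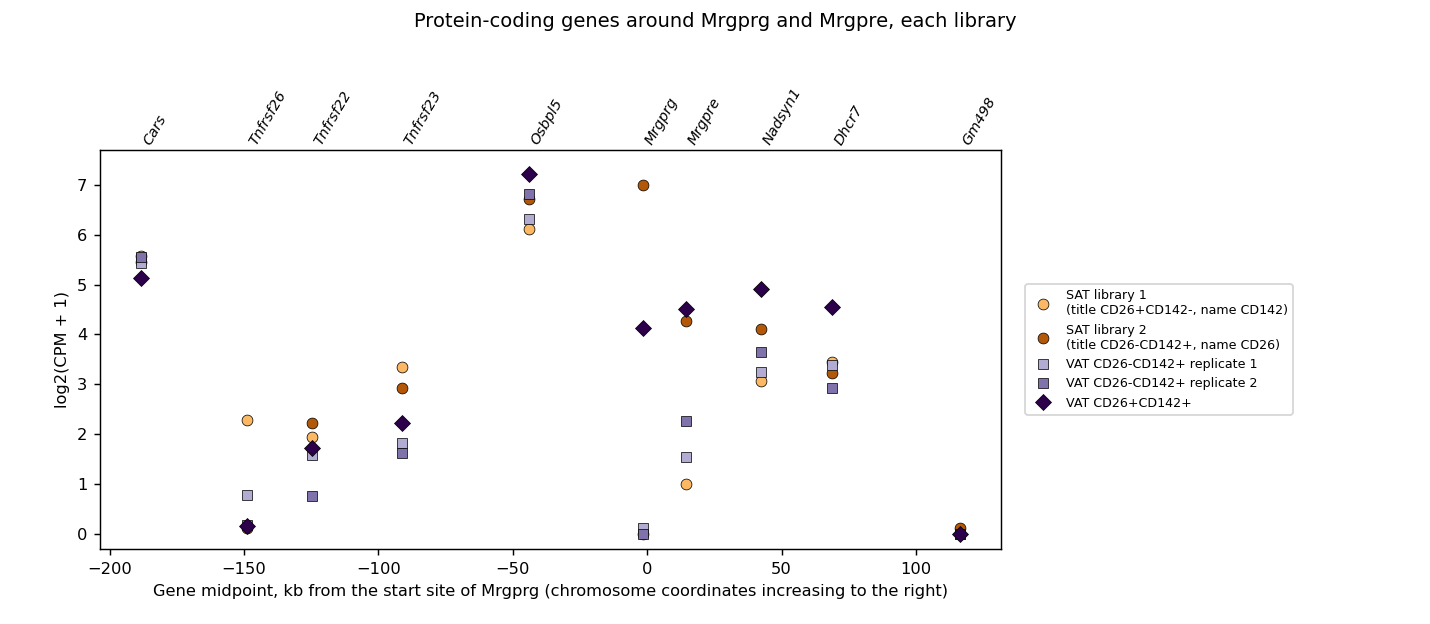
Points give log2(CPM + 1) of protein-coding genes in each library against the distance of the gene's midpoint from the Mrgprg start site, in kilobases. Mrgprg and Mrgpre are split into a high and a low set of libraries, while Osbpl5 stays between 68.3 and 148 CPM.

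Next to Mrgprf, the lysosomal channel gene Tpcn2 was at 33.3 and 51.8 CPM in SAT and between 26.1 and 30.0 CPM in VAT, and did not pass between depots (log2 change 0.63, SE 0.26, edgeR adjusted p = 0.778). Mrgprd, on its other side, had 3 counts in all. Next to Mrgprh, Igf2r was between 100 and 170 CPM in all libraries.

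By Pearson r of log2(CPM + 1) over the 5 libraries, the gene most like Mrgprg of 9868 compared was Pdgfd, a platelet-derived growth factor gene (r = 0.9998), at 24.8 CPM in SAT library 1, 60.9 in SAT library 2, 25.1 in both VAT CD26-CD142+ replicates and 42.5 in the VAT CD26+CD142+ library. Eif2ak2, Il13ra1, Carnmt1, Dmkn and Brd8 followed. Dmkn ran from 0.129 CPM in VAT replicate 2 up to 106 CPM in SAT library 2, while Brd8 lay between 57.6 and 76.9 CPM, so likeness of shape held over very different sizes of change. Most like Mrgpre was Pcsk6, a proprotein convertase gene (r = 0.9991), at 33.5 and 868 CPM in SAT libraries 1 and 2, 68.4 and 131 CPM in VAT replicates 1 and 2, and 1178 CPM in the VAT CD26+CD142+ library. Ankrd29, Nceh1, Slc25a24 and Klf3 were among the next. For Mrgprf the list was Tmbim1 (r = 0.9976), Znhit6, Adh7, Mab21l1, Tdo2 and Fbxl16. With 5 libraries that differ in both gate and depot, 202 genes had r above 0.95 with Mrgprg and 305 with Mrgpre, and r between Mrgprg and Mrgpre was 0.8923.

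Signalling genes that family members use were compared between the VAT gates, where 0.898% of all genes rose and 0.697% fell. Among 9 G alpha subunit genes, 8 were tested, 1 rose and 1 fell. Gnai1, a Gi subunit, was at 89.8 and 81.9 CPM in the VAT CD26-CD142+ replicates and fell with CD26 to 12.9 CPM (log2 change -2.73, SE 0.55, edgeR adjusted p = 0.0169), and it was at 42.5 and 8.20 CPM in SAT libraries 1 and 2. Gna14, a Gq-class subunit, was at 0.183 and 0.0430 CPM without CD26 and rose to 2.18 CPM with it (4.22, SE 1.01, edgeR adjusted p = 0.0484) on 4, 1 and 53 counts, but was higher in SAT library 1 (4.75 CPM) than in SAT library 2 (1.80 CPM). The widely expressed Gq-class genes Gnaq (log2 change 0.23, SE 0.50) and Gna11 (0.11, SE 0.46) did not pass. The list's median log2 change was 0.17, against -0.03 over all genes.

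Among 7 phospholipase C beta and IP3 receptor genes, 6 were tested and 1 rose (0.898% of all genes did), with a median of 0.43. This was Itpr3, an IP3 receptor, at 7.28 and 18.6 CPM in VAT CD26-CD142+ replicates 1 and 2 and 76.1 CPM in the CD26+CD142+ library (log2 change 2.55, SE 0.55, edgeR adjusted p = 0.0318). In SAT it was at 8.77 CPM in library 1 and 71.5 CPM in library 2. Its top libraries were those of Mrgpre, as for 16.8% of genes tested. All 7 receptor kinase and arrestin genes were tested and none passed (median 0.15). Of 4 channels that the receptors open in sensory neurons or act beside, only Trpv4 was tested, at 1.37 and 2.28 against 8.36 CPM in VAT, and it did not pass (2.19 on the log2 scale). Trpa1 had 1 count in all.

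Of 9 genes for precursors of peptides that activate family members, 5 were tested and none passed between VAT gates (median -0.44). Penk, the proenkephalin gene, was at 2436 and 1404 CPM in the VAT CD26-CD142+ replicates and 720 CPM in the CD26+CD142+ library (log2 change -1.41, SE 0.60, edgeR adjusted p = 0.479), and at 587 and 117 CPM in SAT libraries 1 and 2. Of 9 genes of the angiotensin axis of Mas1, 6 were tested and 1 fell (median -0.06). Agt, the angiotensinogen gene, was at 701 and 514 CPM in the VAT CD26-CD142+ replicates and fell with CD26 to 22.7 CPM (log2 change -4.74, SE 0.66, edgeR adjusted p = 0.00157) and was at 275 and 10.1 CPM in SAT libraries 1 and 2. Ace, which forms angiotensin II, was between 1170 and 3621 CPM in the 5 libraries. Between depots, where 0.0503% of all genes passed in edgeR, none of the tested genes of these 6 lists did. DESeq2, which called 2.92% of all genes, called 2 of them, both higher in SAT and both of the angiotensin axis: the receptor gene Agtr1a (log2 change 1.25, SE 0.35, DESeq2 adjusted p = 0.0159) and the peptidase gene Mme (2.97, SE 0.52, DESeq2 adjusted p = 2.79e-06).

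Of 9 mast cell markers, Fcer1a and Ms4a2 were at 0 in all libraries and the list summed to between 1.83 and 6.83 CPM. Of 7 sensory neuron markers, Scn10a was at 0 in all libraries. The list summed to 16.8 and 3.24 CPM in SAT libraries 1 and 2, 36.8 and 23.7 CPM in VAT CD26-CD142+ replicates 1 and 2, and 31.9 CPM in the VAT CD26+CD142+ library, so it was lowest where Mrgprg was highest.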

How the data were processed

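Poly(A)-selected RNA of 5 sorted libraries was sequenced. Per the labels, the submitters' processing notes name mm10, CASAVA, the aligner HISAT2 2.0.5 and the counter featureCounts 1.5.0-p3. The authors deposited raw read counts per gene, not normalized, and a gene length in another unit, bases. Annotation release and strand setting are not given in the sources used here.

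Groups follow the titles, with SAT gates repeated by library name. The 4 receptors and the gene lists were chosen with earlier results of these data known. TMM scaling (edgeR 4.0.16) gave CPM. The filterByExpr filter (minimum count 10, grouped by depot) left 15920 genes and removed 38612. The robust quasi-likelihood F test of edgeR was used, adjusted over every tested gene (Benjamini-Hochberg, 0.05). SE is the absolute log2 change over the root of F. VAT gates and differences between depots came from 4 groups fitted together (1 residual degree of freedom). The single libraries were assumed to vary like the VAT CD26-CD142+ pair. Scripts were tested on simulated data. Ratios of single libraries have exact conditional intervals. DESeq2 1.42.0, its size factors, no filter, a block and leaving out libraries were alternatives. Named were the receptors, family genes with at least 10 counts, the 2 nearest protein-coding genes on each side, the 6 genes most alike, and genes of fixed lists; some of these are not reported here. Family genes under 10 counts were named after their counts were seen.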

Additional observations from a re-analysis of the deposited data

Results flagged for a closer look

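With the SAT gates taken by title, the CD26 effect on Mrgpre differed between depots, SAT minus VAT, by -7.12 on the log2 scale (SE 0.98, edgeR adjusted p = 0.000321 for the interaction), and this is what brought it up for a closer look. With the SAT gates by library name, the difference was 1.27 (SE 0.93, edgeR adjusted p = 1). By either label the SAT gates also differ in CD142, so CD26 and CD142 cannot be told apart in SAT. Both VAT gates are CD142+ by label, but F3 was also lower in the VAT CD26+CD142+ library (ratio 0.322, counting interval 0.308 to 0.336). Dpp4 gave -13.41 by title (SE 1.00) and 1.10 by name (SE 0.79) in the same edgeR fits. As the gene of the sorted CD26, already seen to go against the SAT titles, it is no separate check. No group held the 4 libraries that a check for a library far from the others needs.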

How the results depend on the processing

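With edgeR, 8 genes passed between depots, 254 between VAT gates, 0 for CD26 with SAT gates by title, 95 by name, and 1053 (by title) and 40 (by name) for the difference between depots. DESeq2 gave 465 between depots, 16 and 1338 for CD26 by title and by name, and 85 for the difference by name. With no filter, edgeR gave 70 between depots, 491 between VAT gates, 775 for CD26 by name, and 1621 and 181 for the differences by title and by name. With CD26 as a term, 0 genes passed between depots by title (682 at unadjusted p under 0.05) and 83 by name. With single libraries left out, the counts ran from 0 (without any 1 of the VAT libraries; 578 to 1005 at unadjusted p under 0.05) to 17 between depots, 356 to 383 between VAT gates, 0 to 522 for CD26 by title and 138 to 2034 by name. Without either VAT CD26-CD142+ replicate the 4-group fit has no residual degrees of freedom, so no count was made.

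The number that ends the library name served as a replicate block. The labels do not say what it marks, and 3 of 4 groups hold 1 library, so whether it pairs the libraries could not be checked. With the block, 5 genes passed between depots and, in edgeR, 0 for CD26 by name (1592 at unadjusted p under 0.05). Mrgpre changed to -0.02 between depots and to 2.68 for CD26 by name (adjusted p = 0.305).

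For Mrgpre between depots, the log2 change was -0.89 with CD26 by name as a term and ran from -3.21 to 1.76 with libraries left out. For CD26 by title it ran from -4.21 to 2.94. Mrgprg between depots, fitted for description alone, was 3.5 with all libraries and ran from -10.02 to 4.48 with libraries left out. With CD26 as a term it was 7.5 by title and 2.58 by name. The run without the VAT CD26+CD142+ library gave no value, since Mrgprg did not pass the filter there. Mrgprf for CD26 by name ran from -0.11 to 0.13, and its difference between depots by title from -0.05 to 0.05. With total counts and no scaling, Mrgprf in SAT library 2 was 1.19 times SAT library 1. Mrgpre between VAT gates kept its direction in every alternative run and passed in each one that had a test. Each run with a test used all the VAT libraries, with the spread taken from the same pair, so these are not separate checks. The VAT CD26-CD142+ pair held 2 counts of Mrgprg and all libraries together 2 of Mrgprh, which limits what can be said of both.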

Other observations

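Limits were set after the values were seen. They asked for at least 5 CPM in both SAT library 2 and the VAT CD26+CD142+ library. Over the other 3 libraries, at most 10 counts in all were allowed. Among the 15920 genes tested, 3 protein-coding genes other than Mrgprg met these limits. Gpr1, a receptor gene for the adipokine chemerin, had 1050 counts in SAT library 2 and 147 in the VAT CD26+CD142+ library, against 5 in SAT library 1 and 2 in each VAT CD26-CD142+ replicate. Fam167a had 795 and 203 counts against 3, 0 and 5 in SAT library 1 and VAT replicates 1 and 2. Bmp8a, a bone morphogenetic protein gene, had 476 and 143 counts against 0, 1 and 9. All 3 were higher in SAT library 2 than in the VAT CD26+CD142+ library, the same order as Mrgprg. Dpp4 had this order too (1006 against 417 CPM), and the share of all genes with it was not counted.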
